A study of Mus musculus with 46 samples.

Results

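Klf4, Nr4a3, Creb3, Nrf1, Zeb1, Bach2 and Runx1t1 encode transcription factors or cofactors that are known for immediate-early induction, for membrane stress, for mitochondrial gene expression and for cell lineage. Their rows were followed in the RNA of mouse embryonic fibroblasts (MEFs), cells grown from the connective tissue of mouse embryos, by matching each row's Ensembl identifier to GENCODE M21 and keeping genes with a mean of at least 5 counts per 1e6 counts (CPM) over all libraries. The rule kept 6 of the 7 genes, out of 8986 rows that passed a filter on low counts and 55416 rows in all. Nr4a3 was left out at 2.80 CPM and is described apart from them.

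The MEFs were wild type, purchased cells, or ATF4 KO, a line made in house by CRISPR/Cas9 targeting of Atf4 followed by cell sorting. The sources used here do not say whether this line is 1 clone. Borrelidin, which blocks the charging of threonine tRNA by its synthetase, was given at 600 nM to cells of each genotype, and other cultures received DMSO alone (vehicle). Exposure lasted 7 h, and all 4 groups received DMSO at 1% v/v. Wild type gave 11 vehicle and 12 borrelidin libraries, and ATF4 KO likewise gave 11 and 12.

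ATF4 is the transcription factor whose translation rises when uncharged tRNA activates the integrated stress response, and it binds composite elements shared by the C/EBP and ATF families. Immediate-early genes such as Klf4, a zinc-finger factor that also serves in reprogramming to pluripotency, and Nr4a3, an orphan nuclear receptor, can be transcribed within minutes of a stimulus without new protein. Creb3 is a bZIP protein held in the membrane of the endoplasmic reticulum and released by cleavage in the Golgi. Nrf1, nuclear respiratory factor 1 and not the Nfe2l1 product of the same nickname, drives nuclear genes for mitochondrial proteins. Zeb1 represses epithelial genes in mesenchymal cells such as fibroblasts, Bach2 is a bZIP repressor best known from B and T lymphocytes, and Runx1t1 is a corepressor known from leukemia fusions and from adipogenesis.

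The libraries held 2047362 to 3467765 counts in rows that name a gene (median 2869300). Reads outside every feature made up 69.0% of a library on average. Most row identifiers did not follow the genes that they name. In 3 segments of GRCm38 that hold 306 tested rows and 6.01% of the counts, log2 mean CPM followed mean expression levels listed by gene name (r = 0.968 over 34 genes, 2 of them members), whereas r was 0.146 over 1757 genes elsewhere. These correlations run across genes, which are not independent replicates, and the segments had been chosen on the levels. All members lie in these segments, and other genes are named only where they do too. The row of Atf4 does not, so the knockout could not be checked on its own transcript here. On principal component 2 of the 500 most variable rows, 14 libraries stood apart from the rest of their groups, namely 8 of 11 of wild type with vehicle (replicates 1 to 8), 3 of 11 of ATF4 KO with vehicle and 3 of 12 of ATF4 KO with borrelidin (replicates 1 to 3 in each), and no library of wild type with borrelidin. They are called the lower set and the others the upper set. The labels name no batch, and what separates the sets was not tested. Of 14 fibroblast markers 7 lie in the segments, all detected, and their summed level was 3379 to 4663 CPM in wild type with vehicle, 2681 to 3478 with borrelidin, 4302 to 5208 in ATF4 KO with vehicle and 2971 to 4009 with borrelidin. The largest part of this sum is Tln1, at 2205 CPM on average over all libraries, and the collagen markers of the list lie outside the segments. Of the epithelial markers only Esrp1 lies there, at 0 in 30 of 46 libraries.

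In GRCm38 Klf4 (ENSMUSG00000003032) spans chr4:55527143-55532466 on the minus strand. The plus strand holds Creb3 (ENSMUSG00000028466) at chr4:43562332-43567060, Nr4a3 (ENSMUSG00000028341) at chr4:48045153-48086447, Bach2 (ENSMUSG00000040270) at chr4:32238804-32586108, Runx1t1 (ENSMUSG00000006586) at chr4:13743436-13893649 and Nrf1 (ENSMUSG00000058440) at chr6:30047988-30153458. Exons of Creb3 share 360 of their 2372 bases with Tln1 and 133 with Gba2, and exons of Bach2 share 537 of 9940 bases with Bach2os, all on the other strand. The strand setting of the counting is not given in the sources used here, so reads from these shared bases cannot be assigned to a gene with certainty. The exons of Klf4, Nr4a3, Runx1t1 and Nrf1 overlap no exon of another gene.

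The RefSeq promoters of Klf4 and Creb3, 250 bases before the start site and 50 after it (GRCm38.p6, 5′ to 3′ on the strand of the gene), are shown because these members were called between the genotypes both under vehicle and under borrelidin. Klf4 is chr4:55532426-55532725 on the minus strand and Creb3 is chr4:43562408-43562707 on the plus strand. Capitals mark the CRE core TGACG and the GC box GGGCGG, read on either strand.
Klf4: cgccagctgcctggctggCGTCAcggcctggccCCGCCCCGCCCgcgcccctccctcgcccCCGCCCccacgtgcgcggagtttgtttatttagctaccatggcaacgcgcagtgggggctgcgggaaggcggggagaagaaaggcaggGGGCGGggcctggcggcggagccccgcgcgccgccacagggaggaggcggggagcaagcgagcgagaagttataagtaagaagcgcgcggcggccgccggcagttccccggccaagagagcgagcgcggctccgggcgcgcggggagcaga
Creb3: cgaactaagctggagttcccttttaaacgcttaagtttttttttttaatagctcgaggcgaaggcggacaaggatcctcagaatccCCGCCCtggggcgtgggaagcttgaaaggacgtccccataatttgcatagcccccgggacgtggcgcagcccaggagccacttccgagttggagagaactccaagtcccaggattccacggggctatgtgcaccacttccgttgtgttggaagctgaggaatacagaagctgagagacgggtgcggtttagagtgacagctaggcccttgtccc
The window of Klf4 held 1 CRE core, read on the opposite strand, 232 bases before the start, and 4 GC boxes at 217, 212, 189 and 101 bases before it, of which those at 217 and 212 share a base. The window of Creb3 held 1 GC box, 164 bases before the start. Also searched on both strands were the full CRE TGACGTCA, which contains the core, and the composite ATF4 element in the forms ATTGCATCA, GTTGCATCA, ATTTCATCA and GTTTCATCA. Neither was found in the windows of Klf4, Creb3, Bach2 or Nrf1, which has 2 entries. Among all 32851 RefSeq promoter windows 0.837% held the ATF4 element, 1.79% the full CRE, 20.8% the CRE core and 35.7% the GC box. A match is a match of letters, and its absence says only that these letters are not in this window.

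Counted over the 6 genes, the response to borrelidin went in both directions. In wild type 3 members rose (Klf4, Creb3 and Nrf1) and 2 fell (Zeb1 and Bach2), where 27.6% of all tested rows rose and 31.7% fell (edgeR's quasi-likelihood test, Benjamini-Hochberg adjusted p under 0.05). In ATF4 KO 4 rose (Klf4, Creb3, Nrf1 and Bach2) and 1 fell (Runx1t1), where 16.8% of rows rose and 13.8% fell. The responses differed between the genotypes for 3 members, higher in wild type for Klf4 and lower for Zeb1 and Bach2, beside 16.3% and 17.4% of rows. The median log2 fold change of the members with borrelidin in wild type was 0.004, beside -0.039 over all rows, and in ATF4 KO it was 0.43, beside -0.001.

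Between the lines under vehicle, 2 members were higher in ATF4 KO (Creb3 and Runx1t1) and 2 were lower (Klf4 and Bach2), beside 17.5% and 17.7% of rows. Under borrelidin 2 were higher in ATF4 KO (Creb3 and Zeb1) and 1 was lower (Klf4), beside 25.5% and 24.5% of rows. These comparisons share their groups with the responses above and are not independent of them. The libraries of the compared groups did not overlap for 1 member in wild type (Klf4), for no member in ATF4 KO, for no member under vehicle and for 3 members under borrelidin (Klf4, Creb3 and Zeb1). The same was true of 6.10%, 2.54%, 5.35% and 10.9% of all rows. Without the lower set the response in wild type was called for Klf4 alone, which rose, beside 17.6% of all rows in either direction. In ATF4 KO 4 members rose and 1 fell again, beside 40.8% of rows called in either direction, and the difference of response was called for Klf4 and for Creb3, beside 9.38%. Between the lines 3 were then higher and 1 lower in ATF4 KO under vehicle, beside 20.3% of rows, and 2 higher and 1 lower under borrelidin, beside 52.6%. The study used 1e-10 among other thresholds of adjusted p, on a limma fit to ATF4 activity and not on these contrasts. At an adjusted p under 1e-10 here, 1 member was called for the response in wild type, beside 2.05% of all rows. Between the lines under borrelidin 2 were called, beside 5.42%. None was called in the other comparisons. Their shares were 0.456% for the response in ATF4 KO, 0.512% for the difference of response and 2.59% under vehicle.

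**Figure D1:**
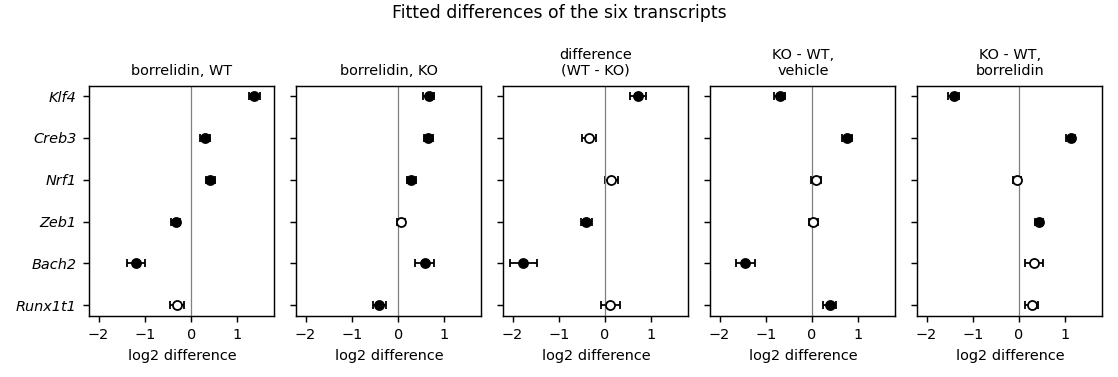
Fitted log2 differences of the 6 transcripts (x axis) in 5 comparisons, with bars of 1 standard error derived from the F statistic of edgeR. Filled points have an adjusted p under 0.05 and open points do not, and the difference panel is the response in wild type minus the response in ATF4 KO. Klf4 is filled in all 5 panels, on the positive side for both responses and on the negative side for both genotype comparisons.

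Klf4 rose with borrelidin in each genotype, more in wild type, and stood lower in the ATF4 KO line in either condition. In wild type its level ran from 20.7 to 41.6 CPM with vehicle (median 26.9, mean 29.6 ± 6.69, SD, n = 11) and from 56.3 to 90.8 CPM with borrelidin (median 78.0, mean 76.7 ± 10.3, SD, n = 12). In the ATF4 KO line it ran from 14.3 to 25.6 CPM with vehicle (median 18.4, mean 18.2 ± 3.79, SD, n = 11) and from 17.1 to 36.3 CPM with borrelidin (median 30.0, mean 28.9 ± 5.99, SD, n = 12). Every library of wild type with borrelidin stood above every library of the 3 other groups, and the treated ATF4 KO libraries reached the range of untreated wild type. The log2 fold change was 1.37 in wild type (standard error, SE, 0.12, edgeR adjusted p = 1e-13), which is 2.58-fold, and 0.66 in ATF4 KO (SE 0.12, edgeR adjusted p = 4.1e-05), which is 1.58-fold. The responses differed by 0.71 (SE 0.17, edgeR adjusted p = 0.0013).

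Against wild type, the log2 difference of Klf4 in ATF4 KO was -0.70 under vehicle (SE 0.13, edgeR adjusted p = 1.1e-05) and -1.41 under borrelidin (SE 0.11, edgeR adjusted p = 5.9e-15). The order of the group means was wild type with borrelidin, then wild type with vehicle and ATF4 KO with borrelidin, which lay within an SD of each other, then ATF4 KO with vehicle. Without the 14 libraries of the lower set the response was 1.50 in wild type (edgeR adjusted p = 3.6e-10), 0.79 in ATF4 KO (edgeR adjusted p = 7e-07), and their difference stayed at 0.71 (edgeR adjusted p = 0.011). Within the lower set alone, 3 against 3 libraries of ATF4 KO, the response was 0.27 (edgeR adjusted p = 0.55).

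Nr4a3, the other immediate-early gene, was near the floor of detection, with 3 to 21 counts in a library. Its level was 1.17 to 5.54 CPM in wild type with vehicle (median 3.24), 1.03 to 4.82 with borrelidin (median 2.21), and in the ATF4 KO line 1.22 to 3.69 untreated (median 1.82) and 1.42 to 6.38 treated (median 3.15). All 4 ranges overlapped. It passed the count filter, and its log2 fold change with borrelidin was 0.82 in ATF4 KO (edgeR adjusted p = 0.011) and -0.49 in wild type (edgeR adjusted p = 0.091), a difference of -1.31 (edgeR adjusted p = 0.0047). Under vehicle it was lower in the ATF4 KO line (log2 difference -0.82, edgeR adjusted p = 0.011). When the lower set was left out these values were 0.79 (edgeR adjusted p = 0.023), 0.20 (edgeR adjusted p = 0.80), -0.59 (edgeR adjusted p = 0.55) and -0.09 (edgeR adjusted p = 0.92). In a fit with library set as a block they were 0.83 (edgeR adjusted p = 0.0057), -0.34 (edgeR adjusted p = 0.45), -1.17 (edgeR adjusted p = 0.028) and -0.73 (edgeR adjusted p = 0.037). Within the lower set the response in ATF4 KO was 0.93 (edgeR adjusted p = 0.25) and the difference under vehicle -1.13 (edgeR adjusted p = 0.032). Nr4a3 and Klf4 are the genes of a list of 20 immediate-early genes that lie in the segments. None of 19 genes of the integrated stress response lies there.

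**Figure D2:**
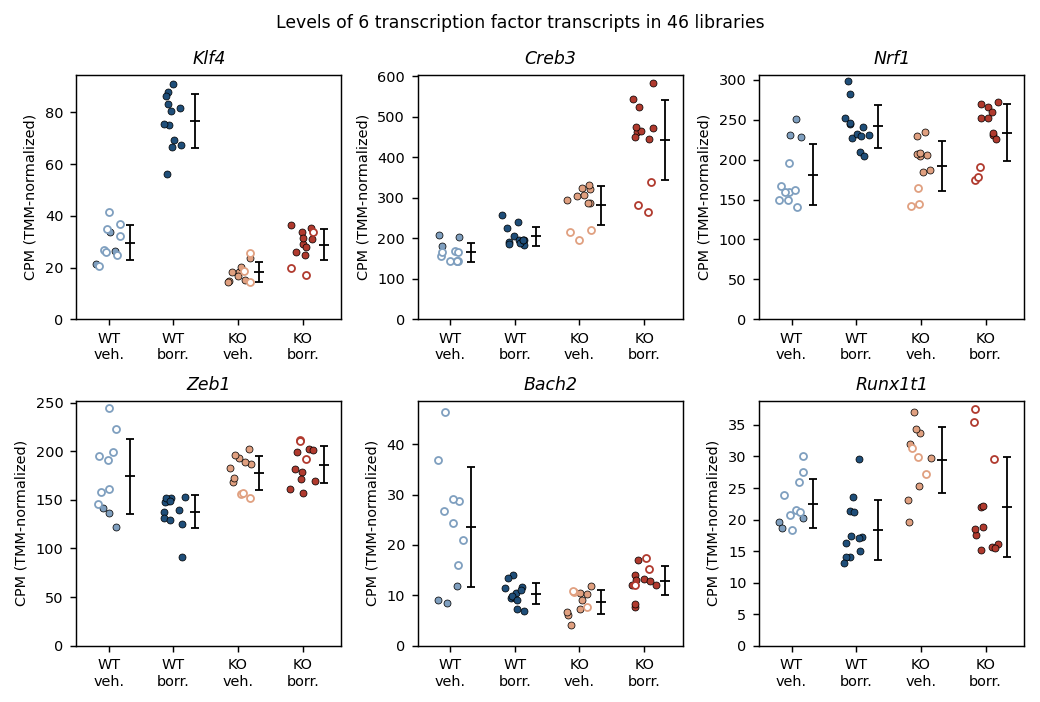
TMM-normalized CPM (y axis, linear from 0) of the 6 transcripts in 46 libraries by group on the x axis, where WT is wild type, KO is the ATF4 KO line, veh. is vehicle and borr. is drug treated. Each point is a library, open for the 14 libraries of the lower set, and the bar beside each group is the mean ± SD. Klf4 of wild type with borrelidin (56.3 to 90.8 CPM) lies above all other libraries, and the high Bach2 values of wild type with vehicle are open points.

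Creb3 had the highest level of the members per kilobase of exon and was higher in ATF4 KO than in wild type in either condition. Its level was 143 to 208 CPM in wild type with vehicle (median 165, mean 166 ± 23.5, SD, n = 11) and 183 to 257 CPM with borrelidin (median 195, mean 205 ± 23.9, SD, n = 12). ATF4 KO libraries held 195 to 332 CPM with vehicle (median 294, mean 281 ± 47.6, SD, n = 11) and 265 to 582 CPM with borrelidin (median 464, mean 442 ± 98.6, SD, n = 12). Under borrelidin every ATF4 KO library stood above every wild type library, and under vehicle the ranges overlapped. The difference between the lines was 0.76 on the log2 scale under vehicle (SE 0.11, edgeR adjusted p = 9.2e-08) and 1.11 under borrelidin (SE 0.10, edgeR adjusted p = 4.6e-13), which is 2.16-fold.

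Borrelidin raised Creb3 by 0.65 on the log2 scale in ATF4 KO (SE 0.10, edgeR adjusted p = 2.6e-06) and by 0.31 in wild type (SE 0.10, edgeR adjusted p = 0.011). The responses differed by -0.35 (SE 0.15), which missed the threshold (edgeR adjusted p = 0.061). The library sets moved with this gene. In ATF4 KO with borrelidin the 3 libraries of the lower set held 265 to 339 CPM and the 9 of the upper set 446 to 582 CPM, and in ATF4 KO with vehicle the 3 held 195 to 221 CPM and the 8 held 287 to 332 CPM. In wild type with vehicle the 8 held 143 to 168 CPM and the 3 held 181 to 208 CPM. In all 3 groups the sets did not overlap.

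Once the lower set was left out, the response of Creb3 in ATF4 KO was 0.68 (edgeR adjusted p = 7.6e-11), that in wild type was 0.05 (edgeR adjusted p = 0.76), and their difference was -0.63 (edgeR adjusted p = 9.4e-05). A fit with library set as block gave -0.72 for the difference (edgeR adjusted p = 2.7e-08). Within the lower set the response in ATF4 KO was 0.49 (edgeR adjusted p = 0.0034). With the replicate number as a block over all groups the difference was -0.32 and passed the threshold (edgeR adjusted p = 0.028). In ATF4 KO this number goes with the library set, so the fit cannot be read as a paired test. Of the genes on the other strand, Tln1, which encodes the focal adhesion protein talin 1, fell with borrelidin in each genotype, with log2 fold changes of -0.42 and -0.48. Gba2 fell in wild type by 0.49 on the log2 scale, and its difference of response was -0.42 (edgeR adjusted p = 0.011). Tln1 was higher in ATF4 KO, as Creb3 was, by 0.44 under vehicle (edgeR adjusted p = 8.2e-05) and by 0.38 under borrelidin (edgeR adjusted p = 0.00023). For Gba2 these values were -0.18 (edgeR adjusted p = 0.13) and 0.24 (edgeR adjusted p = 0.021). Whether reads of these genes enter the counts of Creb3 was not tested. Of 11 genes of the membrane-bound family and its processing, Creb3 is the only one in the segments.

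Nrf1 rose moderately with borrelidin in each genotype and did not differ detectably between the lines. Its level was 141 to 251 CPM in wild type with vehicle (median 162, mean 181 ± 38.6, SD, n = 11) and 205 to 299 CPM with borrelidin (median 236, mean 242 ± 26.9, SD, n = 12). The ATF4 KO range was 142 to 235 CPM with vehicle (median 204, mean 192 ± 31.2, SD, n = 11) and 174 to 272 CPM with borrelidin (median 243, mean 234 ± 35.3, SD, n = 12). All ranges overlapped, and the 2 treated groups lay within an SD of each other, as did the 2 vehicle groups. The log2 fold change was 0.41 in wild type (SE 0.10, edgeR adjusted p = 0.00034) and 0.28 in ATF4 KO (SE 0.10, edgeR adjusted p = 0.021). Between the lines it was 0.09 under vehicle (SE 0.10, edgeR adjusted p = 0.53) and -0.05 under borrelidin (SE 0.09, edgeR adjusted p = 0.70).

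In wild type the rise of Nrf1 was not found once the lower set was left out. The 8 vehicle libraries of the lower set held 141 to 196 CPM and the 3 of the upper set 228 to 251 CPM, inside the range of the treated libraries. The response then was 0.03 in wild type (edgeR adjusted p = 0.87) and 0.28 in ATF4 KO (edgeR adjusted p = 0.00078). In ATF4 KO it was 0.27 within the lower set as well, where 3 against 3 libraries did not pass the threshold (edgeR adjusted p = 0.14).

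Of 14 name patterns of respiratory and mitochondrial import genes, whose nuclear members include genes that Nrf1 is known to drive, 5 genes lie in the segments and all 5 were tested. In wild type all 5 rose with borrelidin, beside 27.6% of rows, and in ATF4 KO none was called, beside 16.8% of rows higher and 13.8% lower. The difference of response was positive and called for 3 of 5, beside 16.3% of rows. Tomm5, a subunit of the import channel of the outer mitochondrial membrane, held 128 ± 110 CPM (SD, n = 11) in wild type with vehicle, 329 ± 87.0 CPM (SD, n = 12) with borrelidin, and in the ATF4 KO line 185 ± 86.6 CPM untreated (SD, n = 11) and 151 ± 67.7 CPM treated (SD, n = 12). Ndufb6, a subunit of complex I, rose in wild type (log2 fold change 0.90, edgeR adjusted p = 0.00034), and so did Ndufaf6, an assembly factor of that complex (log2 fold change 0.90, edgeR adjusted p = 0.00011). Ndufa5 and Ndufaf4, a subunit and an assembly factor, rose by 0.32 and 0.30 on the log2 scale (edgeR adjusted p = 0.046 and 0.021), and neither passed the threshold when libraries were scaled by total counts. These genes differed between the library sets too. In wild type with vehicle Tomm5 was 47.6 to 91.5 CPM in the 8 libraries of the lower set and 283 to 317 CPM in the 3 of the upper set, beside 259 to 508 CPM in the treated libraries, and in ATF4 KO with borrelidin it was 37.6 to 54.7 CPM against 152 to 235 CPM. With library set as a block the difference of response was called for 1 of the 5, Tomm5, beside 20.0% of rows called in either direction. When the lower set was left out, it was called for none of the 5, beside 9.38% of rows. None of the 5 then rose or fell in wild type, beside 17.6% of rows called in either direction. Tomm5 then fell in ATF4 KO by 0.32 on the log2 scale (edgeR adjusted p = 0.038), beside 40.8% of rows called. Between the lines under borrelidin 3 of the 5 were lower in ATF4 KO with all libraries, beside 24.5% of rows lower. Without the lower set 3 were lower, beside 52.6% of rows called in either direction.

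**Figure D3:**
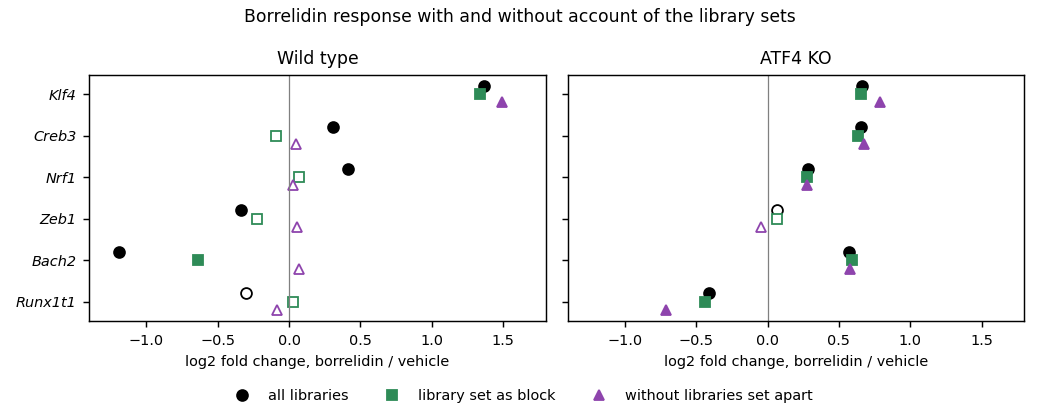
Log2 fold change with borrelidin (x axis) of the 6 transcripts in wild type and in ATF4 KO, from all libraries, with library set as block and without the 14 libraries of the lower set. Filled symbols have an adjusted p under 0.05 in edgeR. In wild type Klf4 keeps a value between 1.34 and 1.50 and the other 5 move toward 0, and in ATF4 KO the values of Creb3, Nrf1 and Bach2 change by less than 0.1.

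Zeb1 (ENSMUSG00000024238), on the plus strand at chr18:5591860-5775467 and sharing 198 of its 10266 exon bases with Gm10125 on the other strand, fell with borrelidin in wild type when all libraries were used, did not change detectably in ATF4 KO, and was higher in ATF4 KO under borrelidin. Its level was 122 to 244 CPM in wild type with vehicle (median 161, mean 174 ± 38.8, SD, n = 11) and 91.6 to 153 CPM with borrelidin (median 144, mean 138 ± 17.4, SD, n = 12). In the KO line the level was 152 to 202 CPM with vehicle (median 183, mean 178 ± 17.6, SD, n = 11) and 157 to 212 CPM with borrelidin (median 187, mean 186 ± 19.0, SD, n = 12). Under borrelidin every ATF4 KO library stood above every wild type library, although the nearest libraries were 153 and 157 CPM. That difference was 0.43 on the log2 scale (SE 0.09, edgeR adjusted p = 4.7e-05), and without the lower set it was 0.38 (edgeR adjusted p = 6e-06).

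The log2 fold change of Zeb1 with borrelidin was -0.34 in wild type (SE 0.09, edgeR adjusted p = 0.0012) and 0.07 in ATF4 KO (SE 0.09, edgeR adjusted p = 0.61), and the responses differed by -0.40 (SE 0.12, edgeR adjusted p = 0.012). Among the vehicle libraries of wild type the lower set held 146 to 244 CPM and the upper set 122 to 141 CPM. Without the lower set the response in wild type was 0.06 (edgeR adjusted p = 0.77), and the difference of response was 0.10 (edgeR adjusted p = 0.69). The lines under vehicle differed by 0.03 with all libraries (edgeR adjusted p = 0.83), by 0.49 without the lower set (edgeR adjusted p = 0.00057) and by -0.29 within the lower set (edgeR adjusted p = 0.047).

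Of 15 epithelial and mesenchymal genes, 4 lie in the segments. Esrp1, an epithelial splicing factor, stayed under the filter at 0.232 CPM. With all libraries the 3 others fell with borrelidin in wild type, beside 31.7% of rows, and in ATF4 KO 2 fell and 1 rose, beside 13.8% and 16.8%. Reck, a membrane inhibitor of matrix metalloproteases, fell in wild type by 0.74 on the log2 scale (edgeR adjusted p = 5.1e-05) and rose in ATF4 KO by 0.52 (edgeR adjusted p = 0.004), a difference of -1.26 (edgeR adjusted p = 7.8e-06). As with Zeb1, its high vehicle values in wild type were those of the lower set, at 28.0 to 70.5 CPM against 14.4 to 31.0 CPM in the upper set. Without the lower set its log2 fold change was 0.11 in wild type (edgeR adjusted p = 0.69) and the difference -0.42 (edgeR adjusted p = 0.15). With library set as a block these values were -0.29 (edgeR adjusted p = 0.13) and -0.83 (edgeR adjusted p = 0.00046). Cav1, which encodes the coat protein of caveolae, and Met, the receptor of hepatocyte growth factor, fell in each genotype with and without the lower set.

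Bach2 had a wide spread in untreated wild type and moved in opposite directions in the genotypes when all libraries were used. Its level was 8.56 to 46.5 CPM in wild type with vehicle (median 24.3, mean 23.5 ± 11.9, SD, n = 11) and 6.96 to 14.0 CPM with borrelidin (median 10.2, mean 10.3 ± 2.14, SD, n = 12). ATF4 KO cells held 4.13 to 11.9 CPM with vehicle (median 9.12, mean 8.68 ± 2.44, SD, n = 11) and 7.77 to 17.3 CPM with borrelidin (median 13.0, mean 12.9 ± 2.91, SD, n = 12). All ranges overlapped, and the high values were those of untreated wild type. The log2 fold change was -1.19 in wild type (SE 0.20, edgeR adjusted p = 2.5e-06) and 0.57 in ATF4 KO (SE 0.21, edgeR adjusted p = 0.029), a difference of -1.77 (SE 0.29, edgeR adjusted p = 6.6e-06). Under vehicle ATF4 KO differed from wild type by -1.45 (SE 0.20, edgeR adjusted p = 1.1e-07) and under borrelidin by 0.32 (SE 0.20, edgeR adjusted p = 0.19).

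The 8 vehicle libraries of wild type in the lower set held 16.0 to 46.5 CPM of Bach2 and the 3 of the upper set held 8.56 to 11.8 CPM, so the sets did not overlap. Without the lower set the response in wild type was 0.07 (edgeR adjusted p = 0.88), the difference of response -0.50 (edgeR adjusted p = 0.32) and the difference between the lines under vehicle -0.26 (edgeR adjusted p = 0.51). Within the lower set alone Bach2 was lower in the ATF4 KO line under vehicle (log2 difference -1.55, edgeR adjusted p = 1.2e-06). In a fit that took library set as a block this value was -1.10 (edgeR adjusted p = 6.2e-06). There the response in wild type was -0.64 (edgeR adjusted p = 0.02) and the difference of response -1.24 (edgeR adjusted p = 0.00081). That fit takes the same set effect in all groups. The means of the lower and upper set were 28.7 and 9.83 CPM in wild type with vehicle. In ATF4 KO they were 9.77 and 8.27 CPM with vehicle and 14.8 and 12.25 CPM with borrelidin. No library of wild type with borrelidin is in the lower set. A set effect particular to wild type therefore cannot be told apart from a difference of treatment or genotype here. Its part in these calls was not tested. The rise in ATF4 KO was 0.57 without the lower set (edgeR adjusted p = 0.0073). In ATF4 KO with vehicle the sets overlapped, at 7.77 to 10.9 CPM and 4.13 to 11.9 CPM. Bach2os, on the other strand, held 4.53, 4.27, 1.70 and 2.89 CPM on average in the 4 groups in the order given. In bulk RNA fewer cells that express a gene and less of its RNA in each cell cannot be told apart.

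Runx1t1 fell with borrelidin in ATF4 KO and was higher in ATF4 KO than in wild type under vehicle. Its level was 18.3 to 30.1 CPM in wild type with vehicle (median 21.2, mean 22.5 ± 3.87, SD, n = 11) and 13.1 to 29.5 CPM with borrelidin (median 17.2, mean 18.3 ± 4.80, SD, n = 12). The range in ATF4 KO was 19.6 to 37.1 CPM with vehicle (median 30.0, mean 29.4 ± 5.21, SD, n = 11) and 15.1 to 37.6 CPM with borrelidin (median 18.7, mean 22.0 ± 7.94, SD, n = 12). All ranges overlapped. The response was -0.41 in ATF4 KO (SE 0.14, edgeR adjusted p = 0.024) and -0.30 in wild type (SE 0.15, edgeR adjusted p = 0.075), and the lines differed by 0.38 under vehicle (SE 0.14, edgeR adjusted p = 0.037).

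In ATF4 KO with borrelidin the 3 libraries of the lower set held 29.6 to 37.6 CPM of Runx1t1 and the 9 of the upper set 15.1 to 22.1 CPM, whereas with vehicle the sets overlapped, at 27.2 to 31.4 CPM and 19.6 to 37.1 CPM. The fall in ATF4 KO was -0.71 without the lower set (edgeR adjusted p = 5.3e-05) and 0.21 within it (edgeR adjusted p = 0.59). The lines under vehicle differed by 0.59 without the lower set (edgeR adjusted p = 0.028).

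Levels per kilobase of exon use all annotated exons of a gene, not the transcripts expressed, and so compare genes only roughly. For Creb3, reads from the bases shared with Tln1 and Gba2 cannot be assigned with certainty. On this scale Creb3 stood highest at 116 CPM per kb over all libraries, followed by Nrf1 at 20.7, Zeb1 at 16.4 and Klf4 at 12.8. Below them were Runx1t1 at 2.88, Bach2 at 1.39 and Nr4a3 at 0.468. The groups changed the middle of this order. In wild type with borrelidin Klf4 reached 25.2 CPM per kb, beside 23.5 for Nrf1 and 13.4 for Zeb1, and in ATF4 KO with vehicle it was 5.98 beside 18.7 and 17.3.

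With group means removed, Creb3 and Nrf1 had the highest correlation between members over the 46 libraries (r = 0.774), and Nrf1 and Bach2 the lowest (r = -0.59). With the means of group and library set removed these values were 0.299 and -0.269. Of 244 tested protein-coding genes of the segments with at least 5 CPM, those most like Klf4 over all libraries were C9orf72 (r = 0.857) and Mdfic (r = 0.855), which held 234 and 388 CPM in wild type with borrelidin against 60.3 and 132 CPM with vehicle. With group means removed r was 0.273 and 0.209. Creb3 was most like Fam110b (r = 0.905) and Ubap1 (r = 0.900), Nrf1 most like Zc3hc1 (r = 0.923) and Stoml2 (r = 0.915), and with group means removed r was 0.726, 0.868, 0.902 and 0.908. The nearest genes of Zeb1 were Jcad (r = 0.733) and Greb1l (r = 0.696), of Bach2 Ccdc136 (r = 0.796) and Tmem8b (r = 0.593), and of Runx1t1 Tln1 (r = 0.722) and Zfp462 (r = 0.629). These values describe libraries that share groups, library sets and scaling, and carry no test.

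Of 21 other transcription factors and regulators of the segments, 12 were tested. In wild type 4 rose and 2 fell with borrelidin, beside 27.6% and 31.7% of rows, and in ATF4 KO 6 rose and none fell, beside 16.8% and 13.8%. The 6 include Pax5, which passed the count filter only through the ATF4 KO groups and is described apart below. The difference of response was positive for 1 and negative for 3, beside 16.3% and 17.4% of rows. Irf5, a factor of interferon and inflammatory responses, held 284 ± 47.3 CPM (SD, n = 11) and 300 ± 49.0 CPM (SD, n = 12) in wild type with vehicle and with borrelidin, and 346 ± 46.5 CPM (SD, n = 11) and 662 ± 212 CPM (SD, n = 12) in ATF4 KO. Its response was 0.08 in wild type (edgeR adjusted p = 0.60) and 0.94 in ATF4 KO (edgeR adjusted p = 4.1e-08), a difference of -0.86 (edgeR adjusted p = 0.00015) that was -1.15 without the lower set (edgeR adjusted p = 1.1e-05). The sets did not overlap for Irf5 in ATF4 KO with borrelidin, at 403 to 474 CPM in the 3 libraries of the lower set and 549.5 to 1094 CPM in the 9 of the upper set, and within the lower set the response in ATF4 KO was 0.16 (edgeR adjusted p = 0.66). Its exons share 411 of 2905 bases with Tnpo3 on the other strand. Zfp438, a zinc-finger protein, rose by 1.24 in ATF4 KO and by 0.60 in wild type, and the difference of -0.63 (edgeR adjusted p = 0.0092) was -0.72 without the lower set (edgeR adjusted p = 0.026). Greb1l, a regulator that takes part in kidney development, fell in wild type and rose in ATF4 KO with all libraries, with a difference of -1.04 (edgeR adjusted p = 0.00011). Leaving out the lower set gave a response of 0.23 in wild type (edgeR adjusted p = 0.44) and a difference of -0.30 (edgeR adjusted p = 0.44). With library set as a block these values were -0.23 (edgeR adjusted p = 0.25) and -0.69 (edgeR adjusted p = 0.0046). Mdfic, a cytoplasmic regulator of transcription factors, had the opposite direction of difference (1.43, edgeR adjusted p = 1.1e-15). Without the lower set 3 of the 12 rose and 1 fell in wild type, beside 17.6% of rows called in either direction. In ATF4 KO 7 rose, Pax5 among them, and 2 fell, beside 40.8% of rows.

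**Figure D4:**
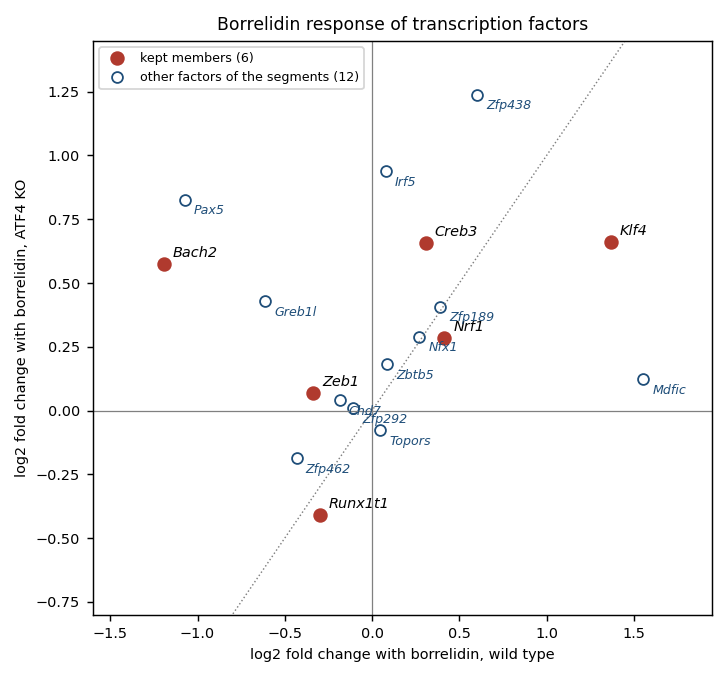
Log2 fold change with borrelidin in wild type (x axis) against that in ATF4 KO (y axis) for the 6 members (filled) and the 12 other tested factors of the segments (open), from all libraries. The dotted line marks equal responses. Pax5 has an x value from wild type levels near 0 and passed the count filter through the ATF4 KO groups. Klf4 (1.37 and 0.66) and Mdfic lie right of the line, and Irf5 and Bach2 lie left of it.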

How the data were processed

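Total RNA of MEFs was sequenced in 46 libraries that the labels give as biological replicates. The authors trimmed reads with fastp, aligned them with HISAT2 and deposited raw counts per Ensembl gene identifier, each library on its own and not normalized. The paper names feature counts and the submitters' processing notes name HTSeq, limma and mm10. Versions, annotation release and strand setting were not given in the sources used here. Of 55416 identifiers 33929 held a count and 52083 were found in GENCODE M21. The 5 closing rows, which name no gene, entered neither library sizes nor tests and held on average 69.0% of reads without feature, 10.8% not aligned, 5.09% of low quality, 3.97% aligned to several places and 0.251% ambiguous.

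Groups came from the labels. Counts were tested with the quasi-likelihood test of edgeR 4.0.16 (R 4.3.3) on 4 group means, after TMM scaling and filterByExpr. Each SE is the size of the log2 difference divided by the square root of the F statistic of that test. The contrasts were borrelidin against vehicle in each genotype, the difference of these, and ATF4 KO against wild type in each condition. The study states limma with ATF4 activity and genotype. As an alternative, edgeR was run on counts with genotype and a term present only in wild type with borrelidin, in place of measured ATF4 activity. Alternatives used DESeq2 1.42.0, limma 3.58.1, other scalings, no count filter, the replicate number or library set as a block, fewer libraries, and the threshold of 1e-10. Tables were made in Python 3.11.15. The tests were checked on simulated counts. Libraries were set apart where the widest gap in component 2 scores exceeded 50% of the range of the group. It was 62.5% in wild type with vehicle, 72.7% and 62.9% in ATF4 KO, and 30.0% in wild type with borrelidin. Members and lists were chosen with earlier results of these data known. Named are all members, the 2 genes most like each kept member (Pearson r of log2(CPM + 1)), and up to 4 tested genes of each list whose p for that difference was smallest, here also their list mates where a count is 5 or fewer. Of the marker lists, B cell markers Pax5 and Cd72 summed to 70.9 to 158 CPM over all libraries, with 1423 of 3422 exon bases of Cd72 under Tesk1 on the other strand, neuronal markers to 1.47 to 9.33 CPM, Ccl19, Ccl21a and Foxe1 were at 0 in every library, and Ccl27a and Tal2 averaged 9.07 and 0.282 CPM. A further marker is not reported here. Over 242 pairs of libraries within groups the lowest chi-square was 1.91 per degree of freedom, so none agreed within sampling noise. Libraries with the same replicate number deviated together from their group means between the 2 ATF4 KO groups, where r was 0.192 to 0.785 and passed 0.1 in 11 of 11 pairs. Between the wild type groups 3 of 11 pairs did so, between the vehicle groups 5 of 10 and between the borrelidin groups 3 of 12. In the ATF4 KO groups libraries with the same number were also of the same library set, and libraries with unlike numbers were not compared. These r therefore cannot tell a pairing from the library set. Promoters came from RefSeq. Runx1t1 is not shown, and Zeb1 was not searched.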

Additional observations from a re-analysis of the deposited data

Results flagged for a closer look

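The difference of response between the genotypes passed its own test (the interaction contrast in edgeR) for 3 members. Klf4 had a log2 difference of 0.71 (adjusted p = 0.0013), positive in the response of each genotype and larger in wild type, and it was 0.71 without the 14 libraries of the lower set as well (adjusted p = 0.011). Zeb1 had a difference of -0.40 (adjusted p = 0.012), which was 0.10 without these libraries (adjusted p = 0.69). Bach2 had a difference of -1.77 (adjusted p = 6.6e-06), which was -0.50 without them (adjusted p = 0.32) and -1.24 in a fit with library set as a block (adjusted p = 0.00081). That block takes the same set effect in all groups, whereas Bach2 differed by set mainly in wild type with vehicle. Creb3 missed the threshold with all libraries (-0.35, edgeR adjusted p = 0.061). Its difference passed without the lower set (-0.63, edgeR adjusted p = 9.4e-05) and with library set as a block (-0.72, edgeR adjusted p = 2.7e-08). What sets the libraries of the lower set apart was not tested.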

How the results depend on the processing

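Of the values of single members under alternatives, 248 kept their direction and side of the threshold, 24 lost the call, 12 gained one and 28 changed direction. Klf4 kept both in 51 of 52 and lost 1 call.

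The number of members called in wild type was 5, with 2 under the library set as a block, 1 without the set-apart libraries, 1 within the upper set and 1 at 1e-10. The shares of all rows called were 59.3%, 29.3%, 17.6%, 19.4% and 2.05%. In ATF4 KO it was 5, with 2 without the count filter (more rows tested), 1 within the lower set (fewer libraries) and 0 at 1e-10. Here the shares were 30.6%, 6.09%, 6.48% and 0.456%. The difference of response had 3 and vehicle 4, beside 33.6% and 35.2% of rows, each 0 at 1e-10, beside 0.512% and 2.59%. Borrelidin had 3, with 5 under total count scaling, beside 49.9% and 54.4% of rows. A minimum of 1 CPM kept 7 members. Values that changed direction were, in wild type, Creb3 -0.09 and Runx1t1 0.026 with the set as a block, and Zeb1 0.055 and Bach2 0.07 without the set-apart libraries and within the upper set. In ATF4 KO they were Zeb1 -0.049 in those 2 settings and Runx1t1 0.21 within the lower set. For the difference of response they were Nrf1 -0.083 and Runx1t1 -0.12 (total count scaling), Nrf1 -0.20 (set as block), and Nrf1 -0.25 and Zeb1 0.10 without the set-apart libraries and within the upper set. Under vehicle they were Zeb1 -0.039 (total count scaling), Nrf1 -0.14 (set as block), Nrf1 -0.19 without the set-apart libraries and within the upper set, and Nrf1 -0.10 and Zeb1 -0.29 within the lower set. Under borrelidin they were Nrf1 0.12 (total count scaling), 0.067 (set as block) and 0.06 without the set-apart libraries and within the upper set, and Runx1t1 -0.036 in the last 2 settings. The cause was not tested. The fits within a set were chosen after seeing the data.

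The replicate block, whose numbers go with the library set in ATF4 KO, changed the call of Creb3 for the difference of response (-0.32, adjusted p = 0.028 in edgeR). It changed no other member's call. Beyond this the samples share only a number.

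Total count scaling moved the median log2 difference of all rows from -0.04 to -0.21 in wild type, from -0.05 to -0.27 for the difference and from 0.04 to 0.20 under borrelidin, and the calls in wild type from 2482 higher and 2845 lower to 1729 and 3867, in ATF4 KO from 1510 and 1238 to 1851 and 959, for the difference from 1463 and 1560 to 807 and 2916, and under borrelidin from 2287 and 2200 to 3458 and 1427. Rows called in wild type were 5327, with 2632 under the set as a block, 1586 without the set-apart libraries and 1741 within the upper set. For the difference they were 3023, with 1797, 843 and 937. Under vehicle they were 3167, with 1820 and 1940 in the last 2 settings, and in ATF4 KO 2748, with 582 within the lower set. At this depth Nr4a3 had 3 to 21 counts a library.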

Other observations

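Pax5, a lineage factor of B cells, in which Bach2 is also known to act, was picked out after its values were seen. It held 0 to 1.30 CPM in wild type with vehicle, 0 to 1.17 CPM with borrelidin, 4.23 to 16.0 CPM in ATF4 KO with vehicle and 9.72 to 39.3 CPM with borrelidin. It passed the filter on low counts through the ATF4 KO groups, so the levels of the lines are given as a description with no test. Its exons share 636 and 125 of 8853 bases with the genes 5730488B01Rik and Gm12462 on the other strand. Cd72, the other B cell marker in the segments, held 86.2, 88.8, 86.3 and 107 CPM on average in wild type with vehicle and borrelidin and in ATF4 KO with vehicle and borrelidin.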
